A study of Rattus norvegicus with 24 samples.

Results

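Release of transmitter at a synapse depends on a small set of proteins. SNARE proteins on the vesicle and on the presynaptic membrane zip together and pull the membranes into contact, synaptotagmins sense the calcium that triggers fusion, and complexins, Munc13 and RIM proteins clamp and prime the vesicle beforehand. Many of these proteins are encoded by families of paralogues, and brain regions are known to use different family members. The messenger RNA of 42 genes of this machinery was examined, chosen by name from the families of synaptotagmins, synapsins, SNAREs, complexins, SV2, synaptophysin relatives, Munc13, RIM, Rab3, Bassoon and Piccolo, NSF, SNAP and Doc2. Of the 42 genes, 41 were found by name among 42334 loci, of which 26641 carried a gene name, and Syt17 was not found under that name.

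The RNA came from adult male Sprague-Dawley rats, 6 with traumatic brain injury (TBI) and 6 sham-operated controls. TBI was caused by lateral fluid percussion, a pulse of fluid pressure onto the dura through an opening in the left side of the skull. The shams had the same anesthesia and opening of the skull without the pulse, so the comparison is of the impact and not of the surgery. At 3 months after surgery each rat gave a sample of perilesional cortex and a sample of ipsilateral thalamus, which made 24 libraries in 4 groups of 6. The TBI rats of the study were chosen on magnetic resonance images that showed inflammation around the lesion, so they stand for that kind of TBI rat.

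Values are normalized counts, which are sequenced fragments per locus after the authors' scaling of each library by its size factor. Libraries held 30568927 to 54608922 fragments. Gene lengths were not used, so a level is compared between groups for the same gene and never between genes. Whole tissue was sequenced, and fewer cells of a type and less RNA per cell cannot be told apart. The labelled regions were borne out by their marker genes: the summed cortex identity genes ranged from 57104 to 70614 in cortex and from 5158 to 13914 in thalamus, and the summed thalamus identity genes from 52521 to 98878 in thalamus and from 2293 to 2969 in cortex, sham and TBI rats together. Choroid plexus markers stood apart in 6 libraries, namely cortex of sham rats 26 and 34 and TBI rat 45, and thalamus of sham rats 34 and 50 and TBI rat 45. Their sums ranged from 11145 to 258298 in these libraries and from 570.1 to 2616 in all others, and counts are therefore also given without these libraries.

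Many genes of the machinery were lower in TBI rats, and almost none was higher. In the perilesional cortex 22 of the 41 genes were lower, where 14.9% of 15493 loci tested were lower, and none was higher, where 14.3% of loci were higher (limma, adjusted p under 0.05; 0 genes were higher at an unadjusted p under 0.05 and 0 by edgeR). In the ipsilateral thalamus 23 genes were lower, where 20.9% of 15564 loci were lower, and only Rab3b was higher, where 14.5% of loci were. The median log2 fold change of the 41 genes was -0.23 in cortex and -0.32 in thalamus, beside -0.0096 and -0.023 over all loci tested. All 6 TBI values lay below all 6 sham values for 13 genes in cortex, where this held for 5.45% of loci, and for 19 genes in thalamus, where it held for 10.7%. The opposite order was seen for Rab3b alone, in thalamus, where it held for 7.46% of loci.

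Without the 3 cortex libraries high in choroid plexus markers, 14 of the 41 genes were lower in cortex, and the number of all loci called there fell from 4531 to 2162. Of 15485 loci tested in that fit, 939 were lower and 1223 higher. Syt2, Syt4, Syt13, Vamp2, Sv2a, Sv2c, Syngr1 and Unc13a were the genes no longer past the threshold. Without the 3 thalamus libraries, 22 genes were lower and 2 higher in thalamus, where 2382 of 15525 loci were lower and 1859 higher. With upper quartile scaling the share of called thalamic loci that were lower went from 59.0% to 48.0%, and 21 of the 41 genes were lower and 2 higher. Of 15564 loci tested under that scaling, 2433 were lower and 2635 higher.

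**Figure D1:**
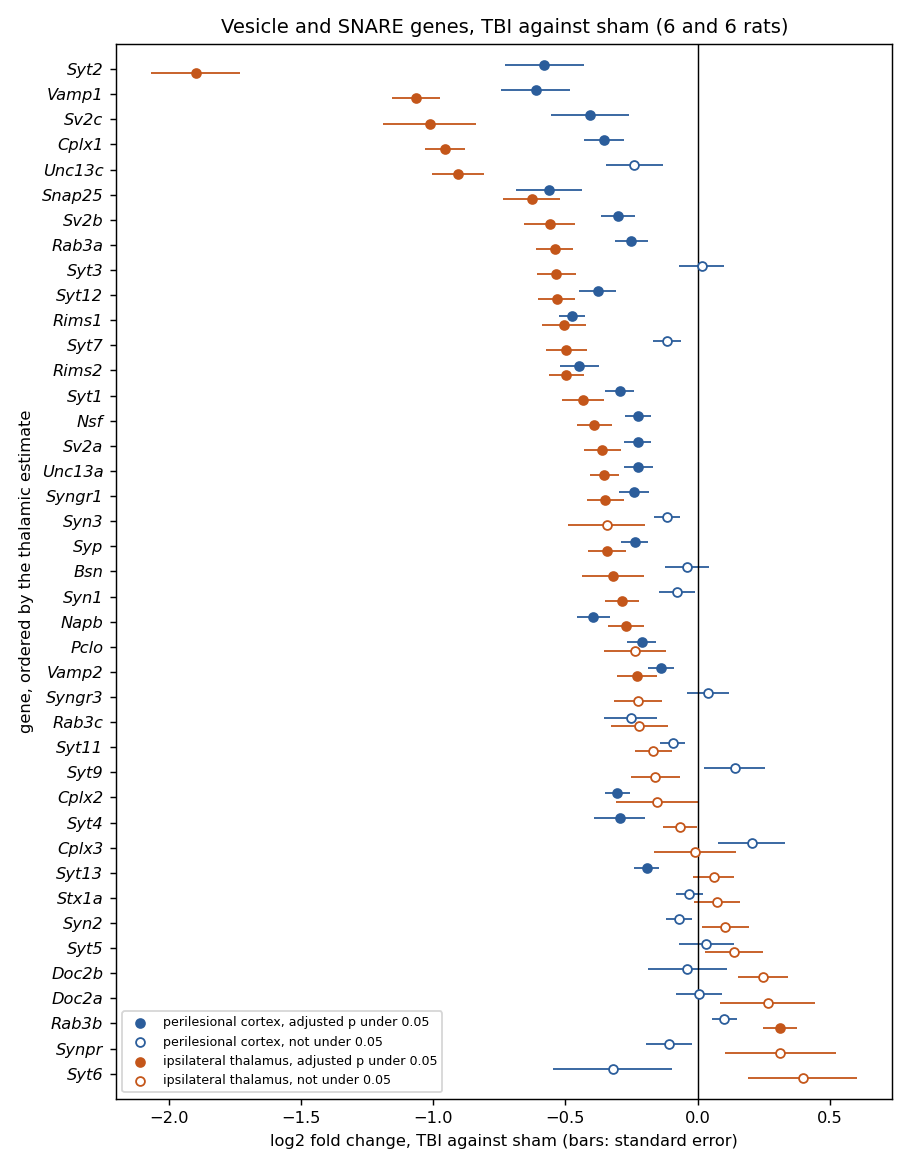
Log2 fold change, TBI against sham, of the 41 genes in perilesional cortex (blue) and ipsilateral thalamus (orange), with the standard error as a bar, 6 TBI and 6 sham libraries per region; filled points passed an adjusted p of 0.05. Most points lie to the left of 0, and the longest distance from 0 is that of Syt2 in thalamus at -1.90.

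Of the 41 genes, 18 were lower in both regions of these same rats, where 8.94% of 15123 loci tested in both were. These were 81.8% of the cortical and 78.3% of the thalamic list, beside 59.4% and 42.1% for all loci called lower, and comprised Cplx1, Napb, Nsf, Rab3a, Rims1, Rims2, Snap25, Sv2a, Sv2b, Sv2c, Syngr1, Syp, Syt1, Syt12, Syt2, Unc13a, Vamp1 and Vamp2. Of these 18 genes, Sv2c lost its cortical call under 16 of 21 alternatives and Vamp2 under 11. Cplx2, Pclo, Syt13 and Syt4 passed the threshold in cortex alone, and Bsn, Syn1, Syt3, Syt7 and Unc13c were lower past it in thalamus alone. Whether the effect itself differed between regions is given with the interaction test. The remaining 13 genes passed in neither region.

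The 4 genes with the largest falls in thalamus were Syt2, Vamp1, Sv2c and Cplx1. Their promoter sequences are shown to let the genes with these falls be compared, with the RefSeq start of each gene in the GRCr8 build, from 250 bases before to 50 bases after it, on the strand of the gene. Capitals mark a GC box (GGGCGG or its reverse complement) and a cyclic AMP response element (TGACGTCA). The Syt2 window is chr13:48736872-48737171 on the plus strand, the Vamp1 window chr4:159698644-159698943 on the plus strand, the Sv2c window chr2:29163119-29163418 on the minus strand and the Cplx1 window chr14:1328823-1329122 on the plus strand.
Syt2: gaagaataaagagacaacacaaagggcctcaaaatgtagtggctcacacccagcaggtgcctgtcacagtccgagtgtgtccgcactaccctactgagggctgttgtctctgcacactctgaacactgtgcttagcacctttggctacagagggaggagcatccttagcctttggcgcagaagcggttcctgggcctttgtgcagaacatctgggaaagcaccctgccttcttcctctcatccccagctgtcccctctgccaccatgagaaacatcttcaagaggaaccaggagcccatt
Vamp1: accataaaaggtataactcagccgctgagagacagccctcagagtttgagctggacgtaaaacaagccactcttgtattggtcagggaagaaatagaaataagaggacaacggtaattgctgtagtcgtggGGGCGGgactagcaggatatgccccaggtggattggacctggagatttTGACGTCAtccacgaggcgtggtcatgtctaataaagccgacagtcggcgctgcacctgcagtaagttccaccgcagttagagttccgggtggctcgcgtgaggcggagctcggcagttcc
Sv2c: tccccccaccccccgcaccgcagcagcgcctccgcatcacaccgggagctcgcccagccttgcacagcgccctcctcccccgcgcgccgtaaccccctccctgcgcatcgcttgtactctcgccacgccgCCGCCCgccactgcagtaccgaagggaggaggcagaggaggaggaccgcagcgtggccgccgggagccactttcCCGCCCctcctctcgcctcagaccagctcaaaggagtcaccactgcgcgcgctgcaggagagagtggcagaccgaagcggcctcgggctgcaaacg
Cplx1: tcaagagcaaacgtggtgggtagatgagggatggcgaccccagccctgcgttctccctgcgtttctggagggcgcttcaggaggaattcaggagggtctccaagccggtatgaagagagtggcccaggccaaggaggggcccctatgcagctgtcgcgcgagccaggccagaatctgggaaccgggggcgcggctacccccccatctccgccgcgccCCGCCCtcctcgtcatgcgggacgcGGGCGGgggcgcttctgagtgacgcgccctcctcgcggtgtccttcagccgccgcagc

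A GC box was found in the windows of Vamp1, Sv2c and Cplx1 and not in that of Syt2. The windows rest on the RefSeq starts alone, and the starts used in these tissues were not examined. Near its end the Syt2 window holds an ATG with no stop codon after it in frame, and may thus reach into coding sequence. The absence in Syt2 therefore holds for this window and says nothing of a promoter farther upstream. Among the 30 genes of the machinery with a promoter in the table, 23 held a GC box on either strand, 76.7%, beside 33.1% of all 33469 promoters. The median GC content of these 30 promoters was 62.8% beside 51.7% of all, and a GC box is itself made of G and C. The cyclic AMP response element was found in Vamp1 and Syn1, 2 of the 30, beside 1.83% of all promoters. TATAAA was found in 0 of the 30 and in 14.2% of all. These are matches of letters in this window and say nothing of binding.

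Among the calcium sensors, Syt2 had the largest fall of all 41 genes. It encodes the fast calcium sensor of synapses that release with short delay, and lies at position 56523945 to 56634850 of chromosome 13 in the deposited annotation. In sham thalamus its lowest, median and highest normalized counts were 7241, 8736 and 9862, and in TBI thalamus 1371, 2374 and 3378. Every TBI rat was far below every sham, with rat 56 lowest and rat 63 highest among the TBI rats. This was a log2 fold change of -1.90 ± 0.17 (SE), adjusted p = 1.96e-06, and the TBI mean was 72.4% below the sham mean. In cortex the values were 6729.7, 7116 and 9025 in sham and 3339, 5422 and 6514 in TBI rats, again without overlap, with rat 45 lowest. The cortical log2 fold change was -0.58 ± 0.15 (SE), adjusted p = 0.00945, and without the 3 cortex libraries high in choroid plexus markers it was -0.38 with an adjusted p of 0.0874.

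Syt1, the main fast sensor of forebrain synapses, is the paralogue closest to Syt2 in role. Its values in thalamus were 49812, 53373 and 63457 in sham and 32817, 41447 and 45502 in TBI rats, with no overlap and rat 45 lowest. This gave a log2 fold change of -0.43 ± 0.081 (SE), adjusted p = 8.79e-04. The study's own sequencing analysis also had Syt1 lower in thalamus, but its quantitative PCR there found no change. In cortex Syt1 went from 63082, 65866 and 71593 in sham to 51432, 53452 and 62290.2 in TBI rats, where rat 63 stood above the other TBI rats and still below every sham. The log2 fold change there was -0.29 ± 0.055 (SE), adjusted p = 0.00126.

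Syt3 and Syt7, sensors of high calcium affinity linked to slower phases of release and vesicle recycling, were lower in thalamus. Syt3 values were 2543, 2860.4 and 3129 in sham thalamus and 1669, 2033 and 2268 in TBI thalamus, with all TBI rats below all shams, and the log2 fold change was -0.53 ± 0.074 (SE), adjusted p = 9.74e-05. In cortex the Syt3 groups overlapped, with 1524, 1928 and 2132 in sham and 1633, 1867 and 2121 in TBI rats and a log2 fold change of 0.015 ± 0.086 (SE), adjusted p = 0.915. Syt7 ranged from 23566 to 30195 in sham thalamus and from 15968 to 20679 in TBI thalamus, with no overlap and a log2 fold change of -0.50 (adjusted p = 2.28e-04), and its cortical estimate was -0.11 (adjusted p = 0.119).

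Of the other synaptotagmins, Syt12 was lower in both regions, at -0.38 (adjusted p = 0.00106) in cortex and -0.53 (adjusted p = 5.63e-05) in thalamus. Syt4, which does not bind calcium in the way Syt1 does, was lower in cortex at -0.29 (adjusted p = 0.0317), a call lost on leaving out any of sham rats 38 and 50 and TBI rats 52 and 56, and so was Syt13 at -0.19 (adjusted p = 0.00697). Their thalamic estimates were -0.066 and 0.061 and did not pass. Syt5, Syt6, Syt9 and Syt11 passed in neither region, with estimates from -0.32 for Syt6 in cortex to 0.40 for Syt6 in thalamus. Syt6 was scarce, with group medians of 103 to 187 normalized counts. Doc2a and Doc2b, calcium sensors for spontaneous and delayed release, also passed in neither region.

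The SNAREs themselves were mostly lower. Vamp1 and Vamp2 encode the synaptobrevins, the SNAREs carried on the vesicle. Vamp1, at position 224743850 to 224750564 of chromosome 4, had values of 12875, 15398 and 16270.1 in sham thalamus and 5784, 7378 and 8351 in TBI thalamus, and every TBI rat was below every sham. Their log2 fold change was -1.07 ± 0.090 (SE), adjusted p = 1.27e-06, with the TBI mean 52.1% below the sham mean. In cortex Vamp1 was 13809.6, 16285 and 18872 in sham and 7559.5, 11549.5 and 14085 in TBI rats, and 5 of the 6 TBI rats were below all shams. The cortical log2 fold change was -0.61 ± 0.13 (SE), adjusted p = 0.00308.

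Vamp2, the synaptobrevin of most forebrain terminals, changed less. Its values were 33066, 36281 and 38984 in sham thalamus and 25088, 31631 and 34595 in TBI thalamus, which overlapped at 1 TBI rat, with a log2 fold change of -0.23 ± 0.076 (SE), adjusted p = 0.0302. In cortex they were 35206, 37629 and 39359.9 and 30546, 34232 and 35664, with a log2 fold change of -0.14 ± 0.049 (SE), adjusted p = 0.0454. Both Vamp2 calls sat near the threshold. The thalamic call was lost under 5 of 21 alternatives and the cortical call under 11 of 21, with adjusted p up to 0.0817 in thalamus and 0.109 in cortex.

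Snap25, the SNARE of the presynaptic membrane that contributes a pair of helices to the bundle, was also lower in both regions. It had a second locus of the same name with a mean of 1.99 normalized counts, which was left aside. In cortex its values were 123684, 128102 and 143971 in sham and 59362, 92668 and 118566 in TBI rats, without overlap, and the TBI rats spread from rat 24 at the low end to rat 63 at the high end. That made a log2 fold change of -0.56 ± 0.12 (SE), adjusted p = 0.00387. In thalamus Snap25 was 55545, 65129 and 74197 in sham and 32236, 44955 and 48762 in TBI rats, again with no overlap, with a log2 fold change of -0.63 ± 0.11 (SE), adjusted p = 4.57e-04.

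Stx1a, a syntaxin and the third partner in the SNARE bundle, did not pass in either region. Its cortical values were 11248, 12538 and 13599 in sham and 11300.5, 12247 and 13063 in TBI rats, with a log2 fold change of -0.031 ± 0.052 (SE), adjusted p = 0.683. In thalamus they were 2039, 2432 and 2537 and 2032, 2491 and 2908, with 0.073 ± 0.087 (SE), adjusted p = 0.551, and the groups overlapped in both regions. Nsf and Napb, the ATPase and its adaptor that take spent SNARE bundles apart, were lower in both regions. Nsf was at -0.23 (adjusted p = 0.00312) in cortex and -0.39 (adjusted p = 5.41e-04) in thalamus, and Napb at -0.39 (adjusted p = 4.43e-04) and -0.27 (adjusted p = 0.00695).

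**Figure D2:**
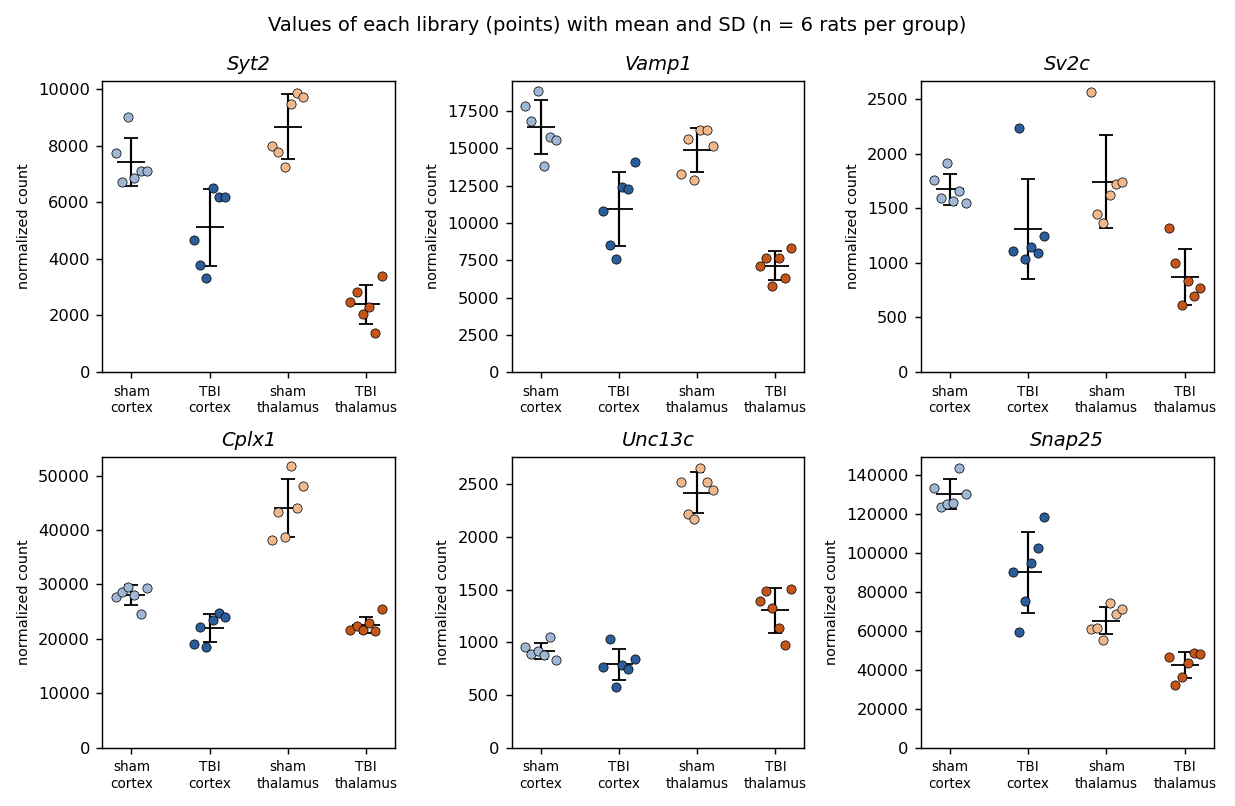
Normalized counts of Syt2, Vamp1, Sv2c, Cplx1, Unc13c and Snap25 in each library (points), by group on the horizontal axis, with the mean and SD of the 6 rats as a bar; each vertical axis starts at 0. In thalamus every TBI point lies below every sham point for all 6 genes, and in cortex this holds for Syt2 and Snap25.

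Complexins bind the assembled SNARE bundle and hold it ready for the calcium trigger. Cplx1, at position 2189529 to 2221019 of chromosome 14, had values of 38234, 43662 and 51786 in sham thalamus and 21496, 22071 and 25415 in TBI thalamus. The TBI rats lay close together and all below the lowest sham, rat 26, and the log2 fold change was -0.96 ± 0.076 (SE), adjusted p = 8.12e-07. By quantitative PCR the study found a smaller fall of Cplx1 in thalamus, and a fall in cortex that was not significant. In cortex Cplx1 was 24568, 28343 and 29573 in sham and 18572, 22824 and 24702 in TBI rats, where 5 of 6 TBI rats were below all shams, with a log2 fold change of -0.35 ± 0.075 (SE), adjusted p = 0.00291.

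Cplx2, the complexin of many excitatory cortical cells, passed in cortex alone. Its cortical values went from 60907, 63164 and 65668 in sham to 47669.5, 50956 and 56531 in TBI rats without overlap, with a log2 fold change of -0.30 ± 0.048 (SE), adjusted p = 3.93e-04. In a joint fit of both regions that adjusted p was 0.067. In thalamus, where its level was far lower, the values were 4230.4, 4664 and 8195 in sham and 3846, 4494 and 6335 in TBI rats and overlapped, with -0.15 ± 0.16 (SE), adjusted p = 0.482. Sham rat 26 was high there, and without it the log2 fold change was -0.016. Cplx3 passed in neither region, at 0.20 (adjusted p = 0.238) in cortex and -0.0095 (adjusted p = 0.97) in thalamus.

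All 3 SV2 genes, which encode glycoproteins of the vesicle membrane, were lower in both regions. Sv2c, at position 45625350 to 45828692 of chromosome 2, was 1368, 1668 and 2566 in sham thalamus and 609.6, 804 and 1316 in TBI thalamus, with no overlap and a log2 fold change of -1.01 ± 0.18 (SE), adjusted p = 5.50e-04. In cortex it was 1543, 1628 and 1916 in sham and 1033, 1126 and 2231 in TBI rats. There 5 TBI rats were below all shams and rat 24 was above all shams, and the log2 fold change was -0.41 ± 0.15 (SE), adjusted p = 0.0495. The cortical call was lost on leaving out any library other than that of TBI rat 24, with adjusted p up to 0.105. It was also lost with upper quartile scaling, no filter, edgeR, the joint fit and without the libraries high in choroid plexus markers. In all it was lost under 16 of 21 alternatives, with adjusted p up to 0.304. Without rat 24 the log2 fold change was -0.57 with an adjusted p of 5.46e-05. A smaller locus of the same name, with a mean of 51.3 normalized counts, was left aside. Sv2a, the most widely used SV2, was at -0.23 (adjusted p = 0.00432) in cortex and -0.36 (adjusted p = 0.00124) in thalamus, and Sv2b was at -0.30 (adjusted p = 0.00313) and -0.56 (adjusted p = 4.68e-04).

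The synaptophysin relatives are abundant vesicle membrane proteins that are often used as markers of terminals. Syp, synaptophysin itself, was lower at -0.24 (adjusted p = 0.00322) in cortex and -0.34 (adjusted p = 0.00193) in thalamus. Syngr1, a synaptogyrin, was lower at -0.24 (adjusted p = 0.00529) and -0.35 (adjusted p = 0.00149). Synpr and Syngr3 did not pass, with Synpr at 6599, 7475 and 8003 in sham cortex, 5262, 6962 and 7776 in TBI cortex, 971, 1331 and 2296 in sham thalamus and 1344, 1545 and 2969.9 in TBI thalamus. The Synpr groups overlapped in both regions. Synapsins tether vesicles to the reserve pool. Of the 3 synapsin genes Syn1 alone passed, in thalamus at -0.29 (adjusted p = 0.00395), and its cortical estimate was -0.078. Syn2 had estimates of -0.068 in cortex and 0.10 in thalamus, and Syn3 of -0.11 and -0.34.

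Of the 6 priming and active zone genes, 4 were lower in cortex and 5 in thalamus. Rims1 and Rims2 encode the RIM scaffolds that bring calcium channels and Rab3 to the release site. Rims1 had the smallest adjusted p of the 41 genes in cortex, with values of 14426, 16184 and 17049 in sham and 10732, 11442 and 12348 in TBI rats, no overlap, and a log2 fold change of -0.48 ± 0.050 (SE), adjusted p = 1.51e-05. In thalamus Rims1 was 7738, 8029.7 and 9709 in sham and 4840.5, 5823 and 7215 in TBI rats, again apart, with -0.51 ± 0.084 (SE), adjusted p = 3.72e-04. Rims2 was at -0.45 (adjusted p = 5.06e-04) in cortex and -0.50 (adjusted p = 8.24e-05) in thalamus.

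Unc13a and Unc13c encode Munc13 proteins, which open syntaxin and prime the vesicle for fusion. Unc13c was 2171, 2479 and 2655 in sham thalamus and 969, 1360.5 and 1503 in TBI thalamus, with every TBI rat below every sham and a log2 fold change of -0.91 ± 0.10 (SE), adjusted p = 1.36e-05. In cortex it was 832, 902 and 1052 and 574, 774 and 1032, and the overlapping groups gave -0.24 ± 0.11 (SE), adjusted p = 0.105, though without TBI rat 24 the adjusted p was 0.0167. Unc13a was 6133, 6642 and 6919 in sham thalamus and 4526, 5245 and 5802 in TBI thalamus, without overlap, with a log2 fold change of -0.35 ± 0.055 (SE), adjusted p = 2.29e-04. In cortex Unc13a was 11717, 12892 and 15021 and 10579, 11002 and 12089, with 5 of 6 TBI rats below all shams and -0.22 ± 0.056 (SE), adjusted p = 0.00828. Bsn and Pclo encode Bassoon and Piccolo, the large scaffolds of the active zone. Pclo was lower in cortex at -0.21 (adjusted p = 0.00902), a call lost in a joint fit of both regions with an adjusted p of 0.101, and its thalamic estimate was -0.24 (adjusted p = 0.134). Bsn was lower in thalamus at -0.32 (adjusted p = 0.0447), a call that was lost under several alternatives, with adjusted p up to 0.114, and its cortical estimate was -0.039 (adjusted p = 0.755).

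Rab3 proteins are the small GTPases of the vesicle surface that bind RIM. Rab3a, the principal one in brain, was 23245, 24989.7 and 27036 in sham thalamus and 14451, 17337 and 19402 in TBI thalamus, with no overlap and a log2 fold change of -0.54 ± 0.069 (SE), adjusted p = 4.84e-05. In cortex it was 21698, 23194 and 25379.6 and 17123, 19927 and 21929, with -0.25 ± 0.062 (SE), adjusted p = 0.00731. Rab3b went the other way in thalamus, where it was 2040.5, 2371 and 2535 in sham and 2658, 2921 and 3161 in TBI rats and all TBI values were above all sham values. The log2 fold change was 0.31 ± 0.064 (SE), adjusted p = 0.00176, and in cortex it was 0.10 ± 0.049 (SE), adjusted p = 0.131 from 3190.3, 3629 and 3722 in sham and 3546, 3785 and 4097 in TBI rats. The deposited locus of Rab3b was joined with the neighbouring gene Txndc12, and fragments of these genes cannot be told apart, so the rise belongs to the locus and not surely to Rab3b. Rab3c was 5672, 8725 and 9253 in sham and 5973, 7096 and 7610.1 in TBI thalamus, which overlapped, with -0.22 ± 0.11 (SE), adjusted p = 0.131. Without sham rat 32 its log2 fold change was -0.32 with an adjusted p of 0.00353. In cortex Rab3c was 1862, 2104 and 2442 and 1476, 1758 and 2246, with -0.25 ± 0.10 (SE), adjusted p = 0.0716, and it passed without TBI rat 24 (adjusted p = 0.0193), TBI rat 45 or sham rat 55.

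An interaction of TBI and region was fitted to all 24 libraries to ask which falls differed between cortex and thalamus. It passed for 5 of the 41 genes, all with a larger fall in thalamus, where 4.54% of 15678 loci passed in that direction. No gene passed in the other direction, where 2.72% of loci did (limma; 3 genes at an unadjusted p under 0.05 and 0 by edgeR). The difference was -1.32 ± 0.24 (SE), adjusted p = 0.00147 for Syt2. For Unc13c it was -0.67 ± 0.15 (SE), adjusted p = 0.00911, for Cplx1 -0.60 ± 0.11 (SE), adjusted p = 0.00142, for Syt3 -0.55 ± 0.12 (SE), adjusted p = 0.0056 and for Syt7 -0.38 ± 0.095 (SE), adjusted p = 0.0143. Vamp1 and Sv2c, with the next largest falls in thalamus, did not pass this test, at -0.45 (adjusted p = 0.109) and -0.61 (adjusted p = 0.142). Snap25, Rims1 and Rims2 had differences of -0.064, -0.030 and -0.048. Without the libraries high in choroid plexus markers 4 genes passed, with Syt3 at an adjusted p of 0.0525 and Syt7 at 0.135, and with Vamp1 now past it at 0.0488. Of 15648 loci in that fit, 228 had a lower TBI effect in thalamus and 194 a higher one. Without rat 45 Vamp1 passed as well, at 0.0453. With the rat as a block, since both regions came from the same animals, 6 genes passed, and Rab3a was the addition at an adjusted p of 0.0328. Of 15678 loci in that fit, 797 had a lower TBI effect in thalamus and 504 a higher one.

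A ratio of paralogues within a library does not depend on how libraries were scaled. For 14 pairs in each region the log2 ratio was compared by an exact two-sided permutation test over all 924 assignments, which cannot give a p below 0.00216, with adjustment over the 28 comparisons. Of these, 7 passed in thalamus and 3 in cortex. Pairs of other genes were not tested, so these counts have no background share beside them. In thalamus the Syt1:Syt2 log2 ratio went from 2.65 ± 0.13 in sham to 4.12 ± 0.43 in TBI libraries (SD, 6 rats each), a shift of 1.47. The Vamp1:Vamp2 log2 ratio went from -1.27 ± 0.14 in sham to -2.11 ± 0.21 in TBI libraries, a shift of -0.84. The Unc13a:Unc13c log2 ratio went from 1.45 ± 0.12 in sham to 2.01 ± 0.25 in TBI libraries, a shift of 0.55. In each of these pairs all 6 TBI libraries lay beyond all 6 sham libraries, and the permutation p adjusted over 28 tests was 0.0121, the smallest it can be here.

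The Rab3a:Rab3b log2 ratio also separated the groups entirely, in thalamus with a shift of -0.85 and in cortex with -0.35, and rests on the joined Rab3b locus. In thalamus Sv2a:Sv2c shifted by 0.65 (exact permutation, adjusted p = 0.026), and Syn1:Syn2 by -0.39 (exact permutation, adjusted p = 0.0202). Cplx1:Cplx2 shifted by -0.80 (exact permutation, adjusted p = 0.0303), with sham rat 26 below the other shams and within the TBI range, and this call was lost when any of 7 libraries was left out. In cortex Vamp1:Vamp2 shifted by -0.48 and Syngr1:Syngr3 by -0.28, both with an adjusted exact permutation p of 0.0303. The first call was lost when any of 7 libraries was left out and the second with any of 3. Without TBI rat 45 or without sham rat 50 only Rab3a:Rab3b remained past the threshold in cortex.

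Other pairs did not pass. In thalamus Syp:Synpr shifted by -0.66 (exact permutation, adjusted p = 0.0771) and Rab3a:Rab3c by -0.32 (exact permutation, adjusted p = 0.096). Rims1:Rims2 shifted by -0.027 in cortex and -0.0092 in thalamus, and Doc2a:Doc2b by 0.043 and 0.018. Sv2a:Sv2b shifted by 0.074 and 0.20, and Bsn:Pclo by 0.17 and -0.085.

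**Figure D3:**
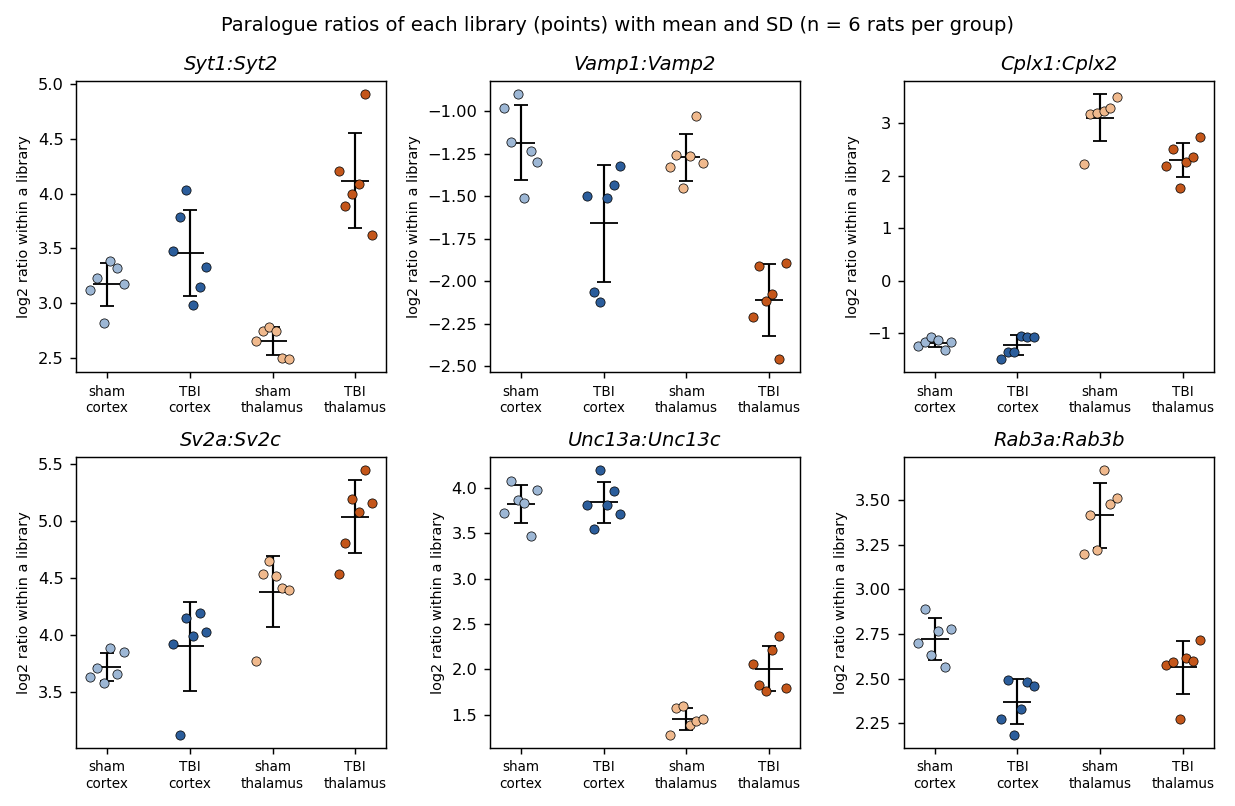
Log2 ratio of the normalized counts of paralogues within each library (points), by group on the horizontal axis, with the mean and SD of the 6 rats as a bar. In thalamus the TBI points of Syt1:Syt2 and Unc13a:Unc13c lie above, and those of Vamp1:Vamp2 and Rab3a:Rab3b below, every sham point, while 1 sham thalamus library, rat 26, lies apart from its group in Cplx1:Cplx2 and Sv2a:Sv2c.

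Thalamus and cortex of sham rats differed in most of these genes, as they did at 9693 of the 15582 loci tested. In sham rats 35 of the 41 genes differed between thalamus and cortex. Of the 41, 14 were higher in thalamus, 34.1%, which is close to the 33.9% of all loci. The 21 that were lower made 51.2%, beside 28.3% of all loci. Syt9, a calcium sensor, had the largest difference, at 4010.4, 5161 and 6068 in sham thalamus and 139, 178 and 201 in sham cortex, a log2 difference of 4.86 ± 0.10 (SE), adjusted p = 7.52e-15. In TBI rats Syt9 was 4150.2, 4573 and 5061 in thalamus and 170.4, 189 and 255 in cortex, so the regions stayed apart. The thalamic TBI effect on Syt9 was -0.16 (adjusted p = 0.195), and -0.23 (adjusted p = 0.0331) without sham rat 26. Rab3c was also higher in thalamus, with a log2 difference of 1.92 ± 0.11 (SE), adjusted p = 2.52e-10. Unc13c followed with 1.39 ± 0.065 (SE), adjusted p = 3.63e-11, so this Munc13 gene was higher in the region where it fell in TBI rats. Doc2b was 1608, 1767 and 2284 in sham thalamus and 675, 845 and 949.8 in sham cortex, a log2 difference of 1.15 ± 0.091 (SE), adjusted p = 1.97e-08. Its TBI values were 1801, 2218 and 2491 in thalamus and 663, 706 and 1335 in cortex.

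On the cortical side Cplx2 had the largest difference, with a log2 value of -3.63 ± 0.13 (SE), adjusted p = 1.12e-12. Doc2a was 819, 949 and 1106 in sham cortex and 110.3, 148 and 210.3 in sham thalamus, a log2 difference of -2.67 ± 0.14 (SE), adjusted p = 1.55e-10. Its TBI values were 792, 946 and 1093 and 142, 172 and 242. Doc2a and Doc2b were thus reversed in their preferred region. Synpr at -2.45 ± 0.15 (SE), adjusted p = 1.34e-09 and Stx1a at -2.40 ± 0.059 (SE), adjusted p = 2.26e-14 were the other genes most in favour of cortex. The genes that fell most in TBI thalamus were not all thalamic genes, since Syt2 differed little between regions at 0.22 ± 0.088 (SE), adjusted p = 0.0402, a call lost under 6 of 15 alternatives, with adjusted p of 0.0712 with the rat as a block and up to 0.149. Vamp1 and Sv2c did not differ past the threshold at -0.14 (adjusted p = 0.131) and 0.031 (adjusted p = 0.836), and without rat 38 the adjusted p of Vamp1 was 0.0226. Cplx1 was higher in sham thalamus at 0.65 (adjusted p = 1.32e-06).

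**Figure D4:**
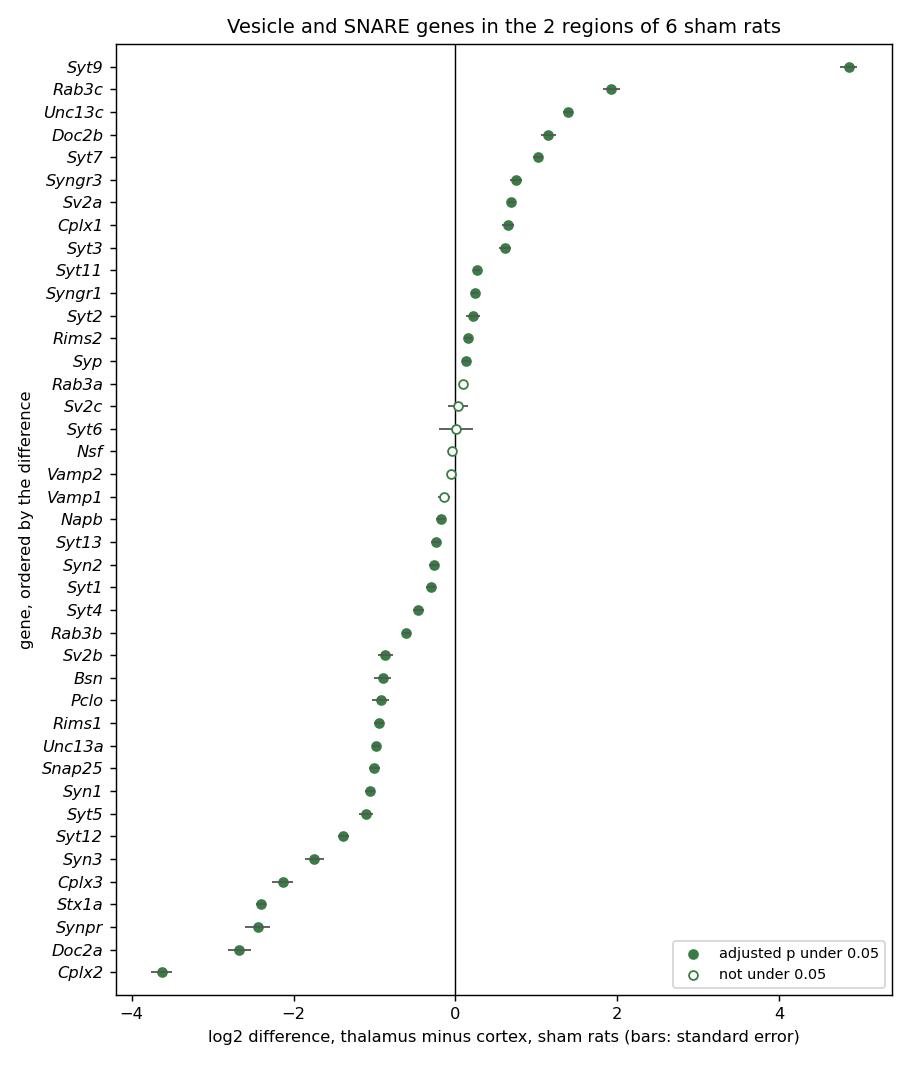
Log2 difference, thalamus minus cortex, of the 41 genes in the 6 sham rats, with the standard error as a bar; filled points passed an adjusted p of 0.05. Syt9 lies at 4.86 on the thalamic side and Cplx2 at -3.63 on the cortical side.

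The rats with the lowest values differed between the regions. In TBI thalamus rat 45 had the lowest value at 18 of the 23 genes called lower, and no other TBI rat at more than 4. Without that library 22 genes were lower and 1 higher. In TBI cortex rat 22 was lowest at 9 of the 22 genes and rat 45 at 7, and rat 63 was highest at 11. Among shams, rat 38 was highest at 14 of the 23 genes in thalamus. Leaving out each library in turn gave 19 to 25 lower genes in cortex and 21 to 24 in thalamus.

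Other genes of vesicle release and recycling, 75 of a list of 79, had a named locus. Of the 73 tested, 32 were lower and 6 higher in cortex, where 14.9% of all loci were lower and 14.3% higher. In thalamus 35 were lower and 13 higher, where 20.9% of all loci were lower and 14.5% higher. The median log2 fold change of the 73 genes was -0.15 in cortex and -0.18 in thalamus, beside -0.0096 and -0.023 over all loci tested. In thalamus the largest falls were those of Slc17a7, a vesicular glutamate transporter, at -1.05 (adjusted p = 6.42e-04) and Slc32a1, the vesicular transporter of GABA and glycine, at -0.91 (adjusted p = 0.0111). Slc17a7 is also among the cortex identity genes, which were far lower in thalamus than in cortex. The source of its thalamic RNA was not tested. The largest rises there were Rph3al at 0.94 (adjusted p = 8.23e-05) and Rab27a, a GTPase of secretory granules, at 0.85 (adjusted p = 8.16e-06). In cortex Slc17a6, the other main glutamate transporter, fell at -0.60 (adjusted p = 0.00128) and Rph3a, a Rab3 effector, at -0.58 (adjusted p = 1.16e-05). Slc17a6 is likewise among the thalamus identity genes. The largest cortical rises were Unc13d, the Munc13 gene of blood cells, at 0.59 (adjusted p = 0.0109) and Sncg at 0.48 (adjusted p = 0.0392).

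Marker genes of several cell types moved with the groups. Beside them, 14.9% of all loci tested were lower and 14.3% higher in cortex, and 20.9% and 14.5% in thalamus. Of 14 tested neuronal markers outside the machinery, 9 were lower in cortex with a median log2 fold change of -0.24, and 12 in thalamus with a median of -0.43. The summed values of the list ranged from 298114 to 311778 in sham and from 228701 to 272127 in TBI cortex, and from 295124 to 339922 in sham and from 198530 to 248016 in TBI thalamus, so the groups did not overlap in either region. Markers of inhibitory neurons were lower for 3 of 6 genes in cortex and 5 of 6 in thalamus, with thalamic sums of 22932 to 41246 in sham and 6660 to 17503 in TBI rats. The highest of these sham sums was that of rat 26, whose thalamic library was also the highest sham for Cplx2 and Sv2c. Microglial markers were higher for 11 of 12 genes in cortex and 12 of 12 in thalamus, with cortical sums of 16603 to 17674 in sham and 23416 to 26239 in TBI rats and thalamic sums of 17827 to 23079 in sham and 35478 to 45561 in TBI rats. Astrocyte markers were higher for 4 of 9 genes in either region, with 1 lower in cortex, and thalamic sums of 179222 to 192710 in sham and 275229 to 328317 in TBI rats. The thalamic mean of Gfap went from 22021 in sham to 103947 in TBI rats, and that of Aqp4 from 32073 to 67738. Slc1a2, Slc1a3, Fgfr3, Gjb6 and Sox9 did not pass in thalamus, so the sums do not stand for every astrocyte gene. Thalamus identity genes were lower for 4 of 5 genes in TBI thalamus, with sums of 70112 to 98878 in sham and 52521 to 63619 in TBI rats. Cortex identity genes were lower for 3 of 7 genes in cortex and 2 of 5 tested in thalamus. Their thalamic sums were 7539 to 13914 in sham and 5158 to 7813 in TBI rats. Markers of dentate gyrus and hippocampus were lower for 2 of 3 tested genes and higher for 1 in thalamus, with C1ql2 at -1.24 (adjusted p = 5.96e-04) and sums of 5012 to 5937 in sham and 3291 to 4652 in TBI rats. Oligodendrocyte markers were higher for 2 of 6 genes in cortex and 1 of 6 in thalamus, and their sums overlapped in both regions. Endothelial markers were higher for 1 of 5 genes in cortex and 2 of 5 in thalamus, also with overlapping sums. Markers of oligodendrocyte precursors were higher for 2 of 2 genes in cortex and 1 of 2 in thalamus. No marker of the neuronal, inhibitory, microglial and astrocyte lists was at 0 in any library. The part of these shifts in the falls of the vesicle and SNARE genes was not tested.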

How the data were processed

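Polyadenylated RNA of 24 libraries was sequenced with a stranded kit. Per the submitters' processing notes, the authors aligned reads with TopHat2 2.0.11 and Bowtie2 2.2.2 and used Cufflinks 2.2.1. The notes name Rnor_5.0, while the methods name another genome release with an Rnor_5.0 annotation, so positions are as deposited. The deposited values are a signal, namely fragment counts per locus after division by the size factor of the library. At least 99.97% of values in each library were, within 0.1, whole multiples of a single step, which gave the fragments for edgeR. Unnamed loci (15693, with 1.90% to 2.23% of the counts per library) were left out. Among loci of the same name that with the highest mean was used.

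Rats were grouped by their labels. limma 3.58.1 in R 4.3.3 (lmFit, eBayes with a mean trend) was run on log2(normalized count + 1), for named loci averaging 10 or more in the fitted libraries, with Benjamini-Hochberg adjustment over all loci and a threshold of 0.05. Fold changes on this scale understate changes of low genes. The study used Cuffdiff on its alignments, which was not run here. Members and gene lists were chosen with earlier results of these data known. Group values are given for Syt1 and Cplx1, for up to 4 called genes with the largest rises and falls in each region, the 4 largest interactions, the 4 largest differences between sham regions in each direction, and the genes of the 4 pairs with the smallest p. Of the other release genes the 2 largest rises and falls per region are named. The Syt7 ranges were added after the values were seen.

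Alternatives were TMM and upper quartile scaling, no filter, a minimum mean of 50, pseudocounts of 0.1 and 5, a threshold of 0.01, a joint fit of both regions, edgeR 4.0.16 on the recovered fragments, the rat as block, and each library or rat left out. Leaving out libraries with summed choroid plexus markers over 10000 was chosen after seeing the data. Both regions of a rat carry its number, and after subtraction of group means the paired libraries of the 12 rats correlated with a median of 0.187 (0.00393 to 0.569), 10 of them over 0.1. Each library held 30568927 to 54608922 fragments. The fits were tested on simulated data. Promoters came from RefSeq in GRCr8, another build than that of the deposited positions, and 30 of 42 genes matched.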

Additional observations from a re-analysis of the deposited data

Results flagged for a closer look

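Among 164 groups of 6 values, 12 had a sample far from the other 5 by Dixon's criterion for the gap to the nearest value. Chance flags about 1 group in 20. In TBI thalamus, rat 45 was apart for Syt6 at 286.5, Syt11 at 35082, Sv2a at 22292 and Synpr at 2970, and rat 63 for Cplx1 at 25415. In TBI cortex, rat 63 was apart for Syt1 at 62290 and rat 24 for Sv2c at 2231. In sham thalamus, rat 26 was apart for Cplx2 at 8195 and Sv2c at 2566, rat 34 for Syt12 at 940.2, rat 38 for Synpr at 2296 and rat 32 for Napb at 18014. Rat 45 thus stood apart at both high and low values. Its thalamic library also had the highest sum of choroid plexus markers, at 258298. Whether that bears on its values was not tested.

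The TBI effect differed between regions for 5 genes, by the interaction test of limma over 24 libraries. The log2 fold change in thalamus was below that in cortex by these differences: Syt2 -1.32, Syt3 -0.55, Syt7 -0.38, Cplx1 -0.60 and Unc13c -0.67.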

How the results depend on the processing

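The counts of genes called stayed within 1.5 times under TMM scaling, no filter, a minimum mean of 50, both pseudocounts, edgeR and, where they applied, a threshold of 0.01, a joint fit and the replicate block. With upper quartile scaling 2 genes were higher in TBI thalamus instead of 1. Without the libraries high in choroid plexus markers, 14 genes were called in cortex, all 14 lower, and 2 were higher in thalamus. That alternative also leaves fewer libraries. With the rat as a block the interaction passed for 6 genes, where 797 of 15678 loci had a lower TBI effect in thalamus and 504 a higher one. In that setting the regions of sham rats differed for 33 genes, 12 of them higher in thalamus. Of 15582 loci, 5332 were higher in thalamus and 4478 lower. Leaving out each library gave 1 to 2 higher genes in thalamus (2 without TBI rat 63 or sham rat 34, with Doc2b added) and 1 to 3 pairs in cortex. Of the 22 genes lower in cortex, 12 kept their call at the 0.05 threshold under every alternative, and of the 24 called in thalamus, 22 did.

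Estimates near 0 changed sign. The cortical Doc2b estimate was 0.0065 with edgeR and ran from -0.18 to 0.020 on leaving out a library. Doc2a in cortex was -0.036 without the choroid plexus libraries and ran from -0.038 to 0.058, and Syt3 in cortex from -0.042 to 0.055. The interaction of Cplx2 was -0.083 without the choroid plexus libraries. On leaving out a rat the interaction of Rims1 ran from -0.070 to 0.021, that of Rab3c from -0.061 to 0.11, and the regional difference of Sv2c in sham rats from -0.072 to 0.13. None of these had passed the threshold, and the cause was not tested. With 6 rats per group the exact permutation test of a pair cannot go below p = 0.00216.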
